A study of Mus musculus with 6 samples.

Results

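The replication-dependent histone genes of the mouse were taken as the rows of the deposited expression table whose symbol starts with Hist1h, Hist2h, Hist3h or Hist4. This gave 68 of 23412 genes: 6 for the linker histone H1, 18 for H2A, 19 for H2B, 12 for H3 and 13 for H4. By genome cluster, 54 belong to Hist1 on chromosome 13, 10 to Hist2 on chromosome 3, 3 to Hist3 on chromosome 11 and 1 to Hist4 on chromosome 6. Among them, Hist3h2bb-ps is annotated as a pseudogene.

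The study profiled total RNA of ventral dermis at 3 weeks of age from 3 control mice, HoxB6CreERT/+; R26-YFP/+, and 3 mutant littermates, HoxB6CreERT/+; R26-YFP/+; CatnbΔex3/+, described as activated beta-catenin. Catnb (Ctnnb1) encodes beta-catenin, and loss of its exon 3 removes the sites that mark the protein for destruction. All 6 mice, controls included, carried the tamoxifen-dependent Cre (CreERT) under HoxB6 and the YFP reporter at R26, were of mixed CD1 and C57BL/6 background, and received tamoxifen through the mother at E16.5. Recombination follows HoxB6CreERT, so the dermis also holds cells in which the allele need not have been recombined. Trypsin was used to take off the epidermis, and libraries were made with a kit for stranded total RNA, which does not select for poly(A).

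Replication-dependent histone genes supply the histones that package newly copied DNA. Pairs of H2A, H2B, H3 and H4 form the nucleosome core, and H1 binds the linker DNA between cores. Their genes lie in clusters, mostly lack introns, and are transcribed chiefly in S phase. Their mRNAs typically end in a conserved stem-loop rather than a poly(A) tail. The stem-loop is bound by the protein Slbp and processed with the U7 snRNP. Some of these genes can also give polyadenylated mRNA. Skin can hold cycling hair matrix cells besides fibroblasts, so these mRNAs can come from several cell types. In whole dermis fewer cells of a type and less RNA per cell cannot be told apart.

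The stem-loop is the feature that sets how these mRNAs end, so 1 member of each class is shown with the commonest letters of its class, followed by both other forms found in H4. The sequences come from GENCODE release M21 transcripts (GRCm38) and are written 5′ to 3′, with the 16 stem-loop bases in capitals and 5 bases on each side in lower case.
Hist1h1c: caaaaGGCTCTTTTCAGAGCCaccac
Hist1h2ab: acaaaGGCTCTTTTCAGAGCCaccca
Hist1h2bm: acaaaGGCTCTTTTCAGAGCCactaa
Hist1h3b: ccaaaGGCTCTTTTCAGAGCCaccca
Hist1h4d: ccaaaGGCCCTTTTCAGGGCCactac
Hist1h4b: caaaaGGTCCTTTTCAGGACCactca
Hist1h4a: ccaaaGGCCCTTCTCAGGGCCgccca
These stem-loops lie on chromosome 13 in the order printed at chr13:23739512-23739527 (+), chr13:23751572-23751587 (+), chr13:21722506-21722521 (+), chr13:23752820-23752835 (+), chr13:23581950-23581965 (+), chr13:23757366-23757381 (+) and chr13:23760800-23760815 (-), all in 3′ UTRs. A match to 1 of the forms shown was found in 36 of 68 members, 24 to 58 bases (median 31) after the stop codon. All 26 matches in H1 (3 members), H2A (10), H2B (8) and H3 (5) had the letters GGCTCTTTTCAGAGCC. The 10 matches in H4 had other letters: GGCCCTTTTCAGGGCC in 7, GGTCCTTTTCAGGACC in 2 and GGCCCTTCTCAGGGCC in 1. Annotated ends limit this count in part, since 19 members have fewer than 60 annotated bases after the stop codon. Of the 48 members with at least 60 such bases, 34 held a match. Others held none despite long annotated ends, such as Hist2h2be (2192 bases after the stop codon) and Hist2h4 (1311). The search allowed only a few of the 16 letters to vary. A stem-loop with other letters would be missed, and the likeness of the matches is partly set by the search.

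The 5′ ends also differed between classes in the letters that RefSeq promoter windows hold (GRCm38.p6, 250 bases before to 50 after the start). Windows were matched for 62 of 68 members. Searched on both strands, CCAAT was in the windows of 53 of 62 members (85.5%) against 37.4% of 32851 windows in the table. It was found in every H1 (6), H2A (18), H2B (16) and H3 (10) window and in 3 of 12 H4 windows. TATAAA was in 35 of 62 (56.5%, against 13.6%). ATGCAAAT, the octamer bound by Oct1 (Pou2f1), was in 14 of 62 (22.6%, against 1.7%), in 7 of 18 H2A and 7 of 16 H2B windows and in no H1, H3 or H4 window. None of these 3 motifs contains another, and a match describes letters, not binding. Windows of genes that start close together on opposite strands overlap, so the same site can count in both. The octamer of Hist1h2aa and Hist1h2ba is such a site, and the counts are of windows, not of separate sites. The 250 bases before the start are shown for an H2B gene with CCAAT and the octamer and for H4 genes with and without CCAAT, with every match in either orientation in capitals.
Hist1h2bm: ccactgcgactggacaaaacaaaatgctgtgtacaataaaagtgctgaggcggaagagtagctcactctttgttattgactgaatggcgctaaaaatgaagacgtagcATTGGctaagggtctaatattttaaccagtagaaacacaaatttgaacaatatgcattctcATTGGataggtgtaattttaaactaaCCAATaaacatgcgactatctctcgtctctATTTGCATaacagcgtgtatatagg
Hist1h4d: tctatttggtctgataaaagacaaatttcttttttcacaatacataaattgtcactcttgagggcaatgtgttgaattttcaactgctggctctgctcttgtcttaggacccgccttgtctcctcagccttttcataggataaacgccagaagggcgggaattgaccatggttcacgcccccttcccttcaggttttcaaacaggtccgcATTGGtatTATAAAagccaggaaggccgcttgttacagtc
Hist1h4f: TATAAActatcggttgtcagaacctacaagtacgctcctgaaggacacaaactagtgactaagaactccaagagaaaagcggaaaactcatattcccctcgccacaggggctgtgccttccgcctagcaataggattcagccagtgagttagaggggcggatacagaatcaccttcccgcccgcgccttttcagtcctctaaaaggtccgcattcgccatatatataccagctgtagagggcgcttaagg
In Hist1h2bm (chr13:21721794-21722043, +) the capitals mark 3 CCAAT matches and 1 octamer match, the latter on the opposite strand. In Hist1h4d (chr13:23581318-23581567, +) they mark 1 CCAAT match on the opposite strand and 1 TATAAA. Hist1h4f (chr13:23551669-23551918, -) has 1 TATAAA, at the far end of the window, and no CCAAT.

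The deposited values are FPKM, fragments assigned to a gene scaled by its length and by the depth of the library, and were compared as log2(FPKM + 1). Reads recovered from the steps of these values came to 7799565 to 9675359 in the control libraries, summed over all genes, and to 11839144 to 13478910 in the mutant ones. By these gene reads control 2 was the shallowest and mutant 1 the deepest library, and their median-of-ratios factors, 0.878 and 1.19, were also the lowest and the highest of the 6. Relative to control 1, the depth used in the FPKM itself was instead lowest in control 3 (0.878, against 0.932 in control 2) and highest in mutant 2 (1.254, against 1.15 in mutant 1). Ctnnb1 did not differ (log2 difference -0.15, adjusted p = 0.895 in limma), and a value for the whole gene does not test the deletion of exon 3. Controls 1 and 2 had Xist at 55.5 and 66.2 FPKM, against at most 6.47 in the other 4 libraries, so sex and group partly coincide. Dermal fibroblast markers were present in all libraries, at 2732 to 10502 summed FPKM in controls and 9531 to 13736 in mutants over 9 genes. None of the 9 was called, but all had log2 differences above 0 (median 1.03), and in 6 of 9 every mutant was above every control. The lowest adjusted p, 0.0845 in limma, was that of Lum (log2 difference 1.499) and Twist2 (1.03). The part of this shift in the histone comparison was not tested. Among all genes tested, 0.143% were called, 71.3% had log2 differences above 0 and in 13.0% every mutant was above every control. Of 8 macrophage and leukocyte markers, 3 were called higher in mutants, and their summed level was 26.2 to 43.0 FPKM in controls and 71.8 to 116 in mutants. In the keratinocyte list 0 of 7 genes were called (578 to 768 summed FPKM in controls, 750 to 850 in mutants). The hair matrix and shaft list had 0 of 9 called (5018 to 5437 and 2792 to 5824) and the skeletal muscle list 0 of 6 (293 to 1194 and 595 to 1283). By list in that order, median log2 differences were 0.23, -0.33 and 0.36, with 5, 0 and 5 genes above 0. In 1 hair matrix and shaft gene, Hoxc13, every control was above every mutant, as in 2.65% of all genes tested. The adipocyte, endothelial and melanocyte lists, of 5 genes each, had 0 called. Their median log2 differences were 0.85, 0.22 and -0.13, with 4, 5 and 1 genes above 0. Summed endothelial FPKM was 26.1 to 32.3 in controls and 33.1 to 43.2 in mutants, without overlap. Summed adipocyte FPKM overlapped (326 to 349 and 256 to 495). In the red blood cell list 4 of 5 genes, all globins, were listed at 0 in all libraries.

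Of the 68 histone genes, 57 reached the floor for testing, an average of 1 FPKM across libraries: 5 H1, 13 H2A, 17 H2B, 10 H3 and 12 H4. Another 5 were detected under that floor. Hist1h1t, the testis linker histone, had a mean of 0.873 FPKM, Hist2h3c1 0.995, Hist2h3c2 0.394, Hist1h4m 0.0711 and Hist1h2aa 0.0218 FPKM, the last from 1 read in mutant 1. The remaining 6 (Hist1h2ao, Hist1h2ap, Hist1h2bq, Hist1h2br, Hist2h2aa1 and Hist2h2aa2) were listed at 0 in all libraries. These 6 are near-identical copies: under 10% of the 100-base windows of their annotated transcripts were found in no annotated transcript of another locus. The rest of the genome was not searched. Only 1 other member, Hist1h3h, fell under that share (8.0%), and it had a mean of 38.5 FPKM. Another 17 members had 10 to 50% of such windows (median 33.3 FPKM, none at 0) and 44 had 50% or more (median 48.2 FPKM, none at 0). How the authors' counting treated reads that match several copies is not given in the sources used here, so the level of a shared copy is uncertain and a value of 0 does not show that the gene is silent.

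**Figure D1:**
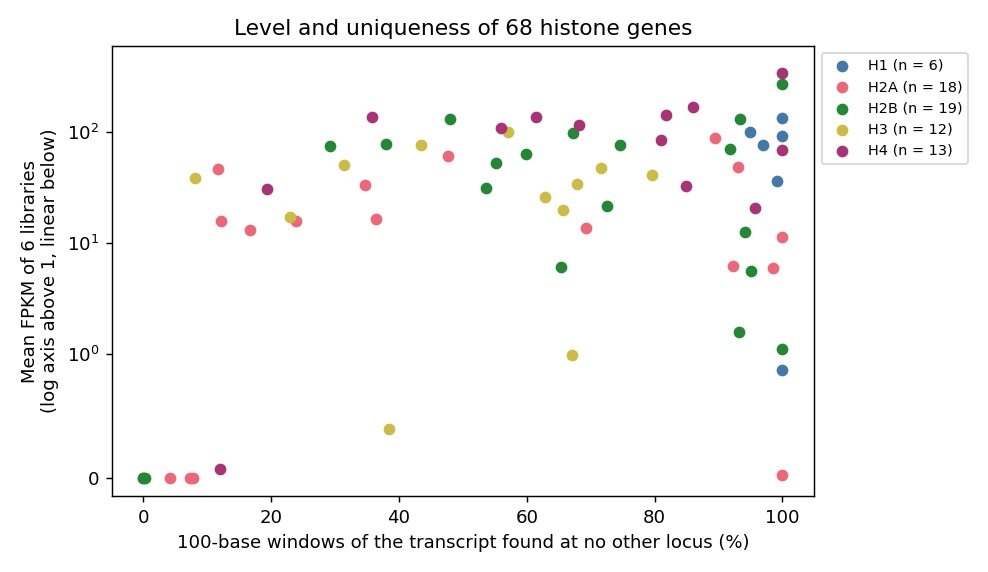
Each point is 1 of the 68 histone genes, coloured by class. The share of its 100-base windows found in no annotated transcript of another locus (%) is set against its mean FPKM over 6 libraries (log axis above 1, linear below). All 6 genes listed at 0 lie under 10%, and Hist1h3h is the only other member there.

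The length that turns recovered reads into FPKM was inferred for the 62 detected members. It rests on a depth set from single-transcript GENCODE genes, of which 537 of 2119 (25.3%) gave the same value. The inferred length equalled the coding length in 29 of the 62 members (commonest 393 bases in H2A, 381 in H2B and 312 in H4). It ran more than 100 bases past the stem-loop in 14. Levels per length therefore do not rest on the same part of each mRNA. The shares of unique windows refer to whole annotated transcripts, such as 1679 bases in Hist1h2bh, whose inferred length was 381. In control 1, Hist1h4d had 2062 reads over 312 bases and Hist4h4 1118 reads over 2879 bases, which gave 388 and 22.8 FPKM. Of the 68 members, 24 overlap another annotated gene, 7 of them on the same strand (such as Hist1h1e with Hist1h2be, and Hist3h2a with Trim17) and 21 on the other strand, some on both. Whether strand was used in counting is not given, so reads of such pairs cannot be assigned with certainty.

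No histone gene passed the test between mutant and control dermis, while the level of nearly all moved together from library to library. The summed FPKM of the 68 genes was 4045, 2372 and 4030.0 FPKM in controls 1 to 3 and 5209, 3378 and 3795 FPKM in mutants 1 to 3. Control 2 was the lowest and mutant 1 the highest of the 6, and the other 4 libraries, 2 of each group, lay between 3378 and 4045. The groups overlapped, with a mean of 3483 ± 962 (SD, n = 3) in controls and 4127 ± 959 (SD, n = 3) in mutants, a ratio of 1.19. In limma, 0 of 57 tested members passed an adjusted p of 0.05, where 0.143% of the 12560 genes tested passed, and their adjusted p ran from 0.397 to 0.996. At an unadjusted p under 0.05 there was 1 member, Hist2h2ab, where 11.3% of all genes passed. All 57 had a log2 difference above 0 (71.3% of all genes did), with a median of 0.27 beside 0.09 for all genes tested. Over the 62 detected members 60 were above 0, with a median of 0.25. These medians rested on control 2 and mutant 1. Without control 2 the median of the 57 was 0.01 (0.03 for all genes) and 35 were above 0, and without mutant 1 it was 0.09 (0.01 for all genes). Without both it was -0.16 (-0.04 for all genes) and 4 of 57 were above 0. These 2 were left out together after they were seen to be the lowest control and the highest mutant. Such a choice lowers the difference by construction. With Xist-based sex as a covariate, where control 3 is the only control set against the mutants, the median was 0.01.

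**Figure D2:**
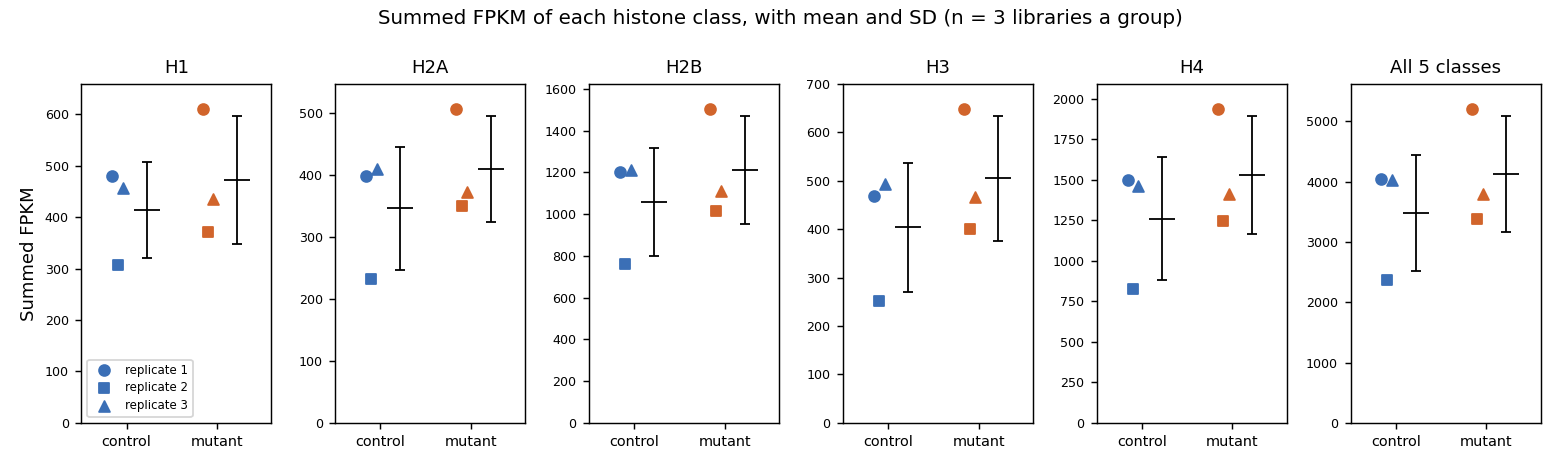
Summed FPKM of each histone class and of all classes, with 1 point per library (marker shape gives the replicate number) and the mean ± SD of each group of 3 beside them. In every panel control 2 is lowest, mutant 1 is highest and the groups overlap.

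H4 and H2B made up most of the summed histone FPKM in every library. H4 took 34.7 to 37.2% of the summed FPKM, H2B 28.9 to 32.0%, H1 10.96 to 12.96%, H3 10.6 to 12.4% and H2A 9.73 to 10.3%. By summed FPKM H2A was the lowest class in all 6 libraries, with 4 of its 18 members listed at 0. H1 and H3 changed places between libraries, with H1 above H3 in controls 1 and 2 and below it in the other 4. The Hist1 cluster supplied 86.8 to 88.5% of the total. These shares moved by a few percentage points at most, while the total ranged from 2372 to 5209 FPKM. As a share of recovered reads, histone genes accounted for 0.385, 0.269 and 0.364% in the controls (1 to 3), against 0.409, 0.327 and 0.345% in the mutants. Mutants 2 and 3 lay within the range of the controls and mutant 1 above it. By reads, which are not divided by the uneven lengths, H1 exceeded H4 in all 6 libraries, such as 10582 against 9687 reads in control 1. H2A was also the lowest class by reads except in control 2, where H3 had 1888 reads and H2A 1929.

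Summed FPKM of the H1 genes was 479, 307 and 456 FPKM in controls 1 to 3 and 611, 370.3 and 435 FPKM in mutants 1 to 3. Hist1h1b was the highest H1 gene at 149.9, 94.6 and 139 FPKM in controls 1 to 3 and 184, 109 and 134 FPKM in mutants 1 to 3 (log2 difference 0.15, adjusted p = 0.908). Hist1h1c had 103, 70.03 and 105 FPKM in controls 1 to 3 and 148, 86.3 and 91.9 FPKM in mutants 1 to 3 (difference 0.21, adjusted p = 0.866). Hist1h1a had 97.7, 64.8 and 91.1 FPKM in controls 1 to 3 and 122, 79.1 and 96.8 FPKM in mutants 1 to 3 (difference 0.23, adjusted p = 0.821). In each of these 3 the lowest library was control 2 and the highest mutant 1, and controls 1 and 3 lay above mutant 2. The 5 tested H1 genes had log2 differences from 0.15 to 0.23 (median 0.17). The H1 genes Hist1h1b and Hist1h1a have fully unique windows, and Hist1h1c shares a small part of its sequence with Hist1h1d.

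H2A gave the smallest class sum, 398, 232 and 409 FPKM in controls 1 to 3 and 507, 349 and 373 FPKM in mutants 1 to 3. Hist1h2ak was the highest H2A gene at 98.6, 50.1 and 94.5 FPKM in controls 1 to 3 and 117, 80.5 and 93.6 FPKM in mutants 1 to 3 (difference 0.30, adjusted p = 0.793). Hist1h2ab had 61.2, 38.7 and 71.9 FPKM in controls 1 to 3 and 84.8, 54.5 and 58.8 FPKM in mutants 1 to 3 (difference 0.22, adjusted p = 0.85) and Hist2h2ac, of the Hist2 cluster, 49.3, 29.3 and 52.7 FPKM in controls 1 to 3 and 67.5, 44.6 and 47.5 FPKM in mutants 1 to 3 (difference 0.30, adjusted p = 0.768). In all of them control 2 was far under the other libraries and mutant 1 above them. Hist1h2ae, chosen for its small p, stood at 12.5, 8.42 and 15.9 FPKM in controls 1 to 3 and 18.3, 14.6 and 12.9 FPKM in mutants 1 to 3 (difference 0.32, adjusted p = 0.682). The 13 tested H2A genes had log2 differences from 0.11 to 0.43 (median 0.25).

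Hist2h2ab was the only tested member whose groups did not overlap. It lies on chr3:96219865-96220308 (+) beside Hist2h2ac, and 98.6% of its 100-base windows are unique. Its level was 6.13, 3.53 and 5.28 FPKM in controls 1 to 3 and 7.93, 6.199 and 6.697 FPKM in mutants 1 to 3. The mean was 4.98 ± 1.33 FPKM (SD, n = 3) in controls and 6.94 ± 0.892 FPKM (SD, n = 3) in mutants. These values rest on few reads, from 22 in control 2 to 61 in mutant 1. Control 1, at 6.13 FPKM (41 reads), was just under mutant 2, at 6.199 FPKM (52 reads). The log2 difference was 0.43 (95% interval 0.03 to 0.83), with an adjusted p of 0.397 in limma. Among all genes tested the groups were apart with mutants higher in 13.0% and with controls higher in 2.65%, beside 1 of 57 members. Full separation of 3 against 3 gives p = 0.1 in an exact permutation test, the smallest it can give. Without control 2 the log2 difference of Hist2h2ab was 0.24.

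For H2B the class sum was 1202, 759 and 1211 FPKM in controls 1 to 3 and 1505, 1015 and 1111 FPKM in mutants 1 to 3. Hist2h2bb was the second highest histone gene of all, at 279.6, 204 and 291 FPKM in controls 1 to 3 and 348, 239 and 271 FPKM in mutants 1 to 3 (difference 0.15, adjusted p = 0.912), and it overlaps the annotated genes Gm42743 and Gm20628. Hist1h2bn had 147, 90.3 and 138 FPKM in controls 1 to 3 and 177, 111 and 133 FPKM in mutants 1 to 3 (difference 0.17, adjusted p = 0.895). Hist1h2bm, whose upstream bases are printed with the octamer, had 134, 82.1 and 144 FPKM in controls 1 to 3 and 182, 121 and 120.3 FPKM in mutants 1 to 3 (difference 0.25, adjusted p = 0.838). In these 3 genes, as in the class sum, control 2 was lowest, mutant 1 was highest and controls 1 and 3 lay between mutants 1 and 2. At a lower level, Hist1h2bp had 6.23, 4.03 and 5.63 FPKM in controls 1 to 3 and 8.43, 5.92 and 6.57 FPKM in mutants 1 to 3 (difference 0.34, adjusted p = 0.513). Hist2h2be, a Hist2 gene with an annotated transcript of 2620 bases, had 0.965, 0.915 and 0.92 FPKM in controls 1 to 3 and 1.56, 1.38 and 0.951 FPKM in mutants 1 to 3 (difference 0.24, adjusted p = 0.598), and its mutant 3 lay within the controls. Hist1h2ba, the H2B gene known from testis, was at 14.9 to 28.5 FPKM on 91 to 214 reads per library, while its divergent neighbour Hist1h2aa had 1 read in all. Only 72.6% of the 100-base windows of Hist1h2ba are unique. It shares the most with Hist1h2bj, so its own level is uncertain. The 17 tested H2B genes had log2 differences from 0.00 (Hist3h2bb-ps) to 0.40 (Hist1h2bk), with a median of 0.18.

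The H3 sum was 469, 251 and 492 FPKM in controls 1 to 3 and 649, 400.3 and 466 FPKM in mutants 1 to 3, with the largest ratio of mutant to control means of the 5 classes (1.25). Hist1h3e was highest at 108, 55.8 and 105 FPKM in controls 1 to 3 and 139, 83.3 and 108 FPKM in mutants 1 to 3 (difference 0.33, adjusted p = 0.785). Hist1h3b had 81.6, 50.2 and 78.5 FPKM in controls 1 to 3 and 100.5, 71.4 and 80.3 FPKM in mutants 1 to 3 (difference 0.28, adjusted p = 0.769) and Hist1h3i 49.9, 27.4 and 56.4 FPKM in controls 1 to 3 and 74.3, 45.5 and 48.7 FPKM in mutants 1 to 3 (difference 0.36, adjusted p = 0.7502). Hist1h3g, at 27.1, 11.8 and 27.3 FPKM in controls 1 to 3 and 41.02, 21.1 and 28.2 FPKM in mutants 1 to 3 (difference 0.47, adjusted p = 0.692), varied more from library to library. Hist2h3b had the largest spread of all tested members, 19.9, 5.83 and 14.8 FPKM in controls 1 to 3 and 26.7, 15.2 and 20.8 FPKM in mutants 1 to 3 (difference 0.71, adjusted p = 0.538), and 22.9% of its 100-base windows are unique. In these 5 genes mutant 2 lay below control 1, so the groups overlapped. The 10 tested H3 genes had log2 differences from 0.23 to 0.71 (median 0.34). Without control 2 the log2 ratio of mean H3 sums went from 0.32 to 0.07.

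By summed FPKM H4 was the largest class, at 1497, 824 and 1462 FPKM in controls 1 to 3 and 1938, 1244 and 1411 FPKM in mutants 1 to 3. Hist1h4d, on chr13:23581598-23582735 (+), was the highest histone gene at 388, 208 and 351 FPKM in controls 1 to 3 and 446, 311 and 358 FPKM in mutants 1 to 3, or 316 ± 95.2 (SD, n = 3) in controls and 372 ± 68.8 (SD, n = 3) in mutants (difference 0.27, adjusted p = 0.848). All 100-base windows of its annotated transcript of 1138 bases are unique, and 89.8% of the 50-base ones, while its inferred length is 312 bases. Hist1h4c had 180.0, 92.5 and 179.7 FPKM in controls 1 to 3 and 240.3, 147 and 166 FPKM in mutants 1 to 3 (difference 0.32, adjusted p = 0.803). Hist1h4f, which lacks CCAAT in its window, had 153, 95.8 and 145 FPKM in controls 1 to 3 and 198, 119 and 144 FPKM in mutants 1 to 3 (difference 0.22, adjusted p = 0.857). Control 2 was the lowest library for each of these H4 genes, and control 1 was the second highest. The 12 tested H4 genes had log2 differences from 0.22 to 0.37 (median 0.31).

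**Figure D3:**
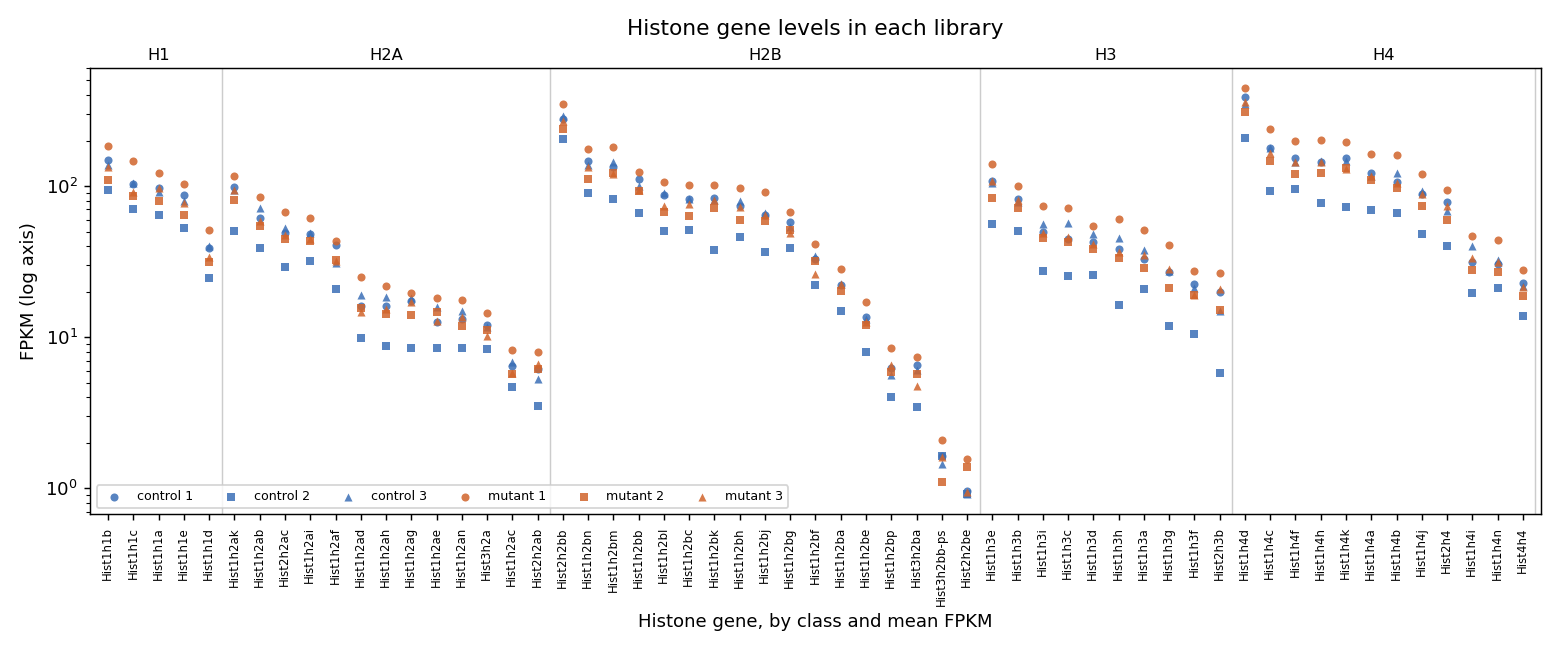
FPKM (log axis) of the 57 tested histone genes in each of the 6 libraries, ordered by class and by mean level within a class; blue marks controls, orange marks mutants and the shape gives the replicate. The blue square of control 2 is lowest and the orange circle of mutant 1 is highest in 56 of 57 genes.

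Control 2 was the lowest and mutant 1 the highest library in 56 of 57 tested members, an order found in 37.4% of all genes tested. Control 2 was lowest in 47.1% of all genes and mutant 1 highest in 64.1%. The exception was Hist3h2bb-ps, the pseudogene, which was lowest in mutant 2. The median deviation of the 57 members from their own mean over the libraries was, on the log2 scale, 0.11 in control 1, -0.61 in control 2 and 0.12 in control 3, against 0.47, -0.10 and 0.03 in the mutants in that order. For all genes tested it was 0.02, -0.16 and -0.00 in controls and 0.21, -0.11 and 0.05 in mutants. Control 2 and mutant 1 were the extremes in both, further out in the histone genes. Mutant 3 was second highest by the median of all genes, but lay below controls 1 and 3 in the histone genes, and mutant 2 deviated about as much in both. By class, control 2 was lowest by deviation in H3 (-0.80), then H4 (-0.69), H2A (-0.62), H2B (-0.53) and H1 (-0.48).

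The members kept close to each other within a library. The SD of a member over the 6 libraries, groups ignored, had a median of 0.36 on the log2 scale, beside 0.19 for all genes tested. Once the histone median of each library was taken off, the median SD was 0.10, and 28 of 57 members were under 0.1. That median comes from these same members, so taking it off lowers their spread by construction. No like value was computed for other genes. Many members share sequence, and the part of shared reads in this closeness was not tested. Hist2h2ac (0.04), Hist1h2be (0.05) and Hist4h4 (0.05) followed the histone median most closely, and they come from 3 clusters. Hist2h3b (0.38), Hist3h2bb-ps (0.33), Hist2h2be (0.31), Hist1h3h (0.26) and Hist1h3g (0.22) departed from it most. Of these, Hist3h2bb-ps and Hist2h2be are near the floor (means of 1.59 and 1.12 FPKM), and Hist1h3h and Hist2h3b share most of their sequence with other loci.

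**Figure D4:**
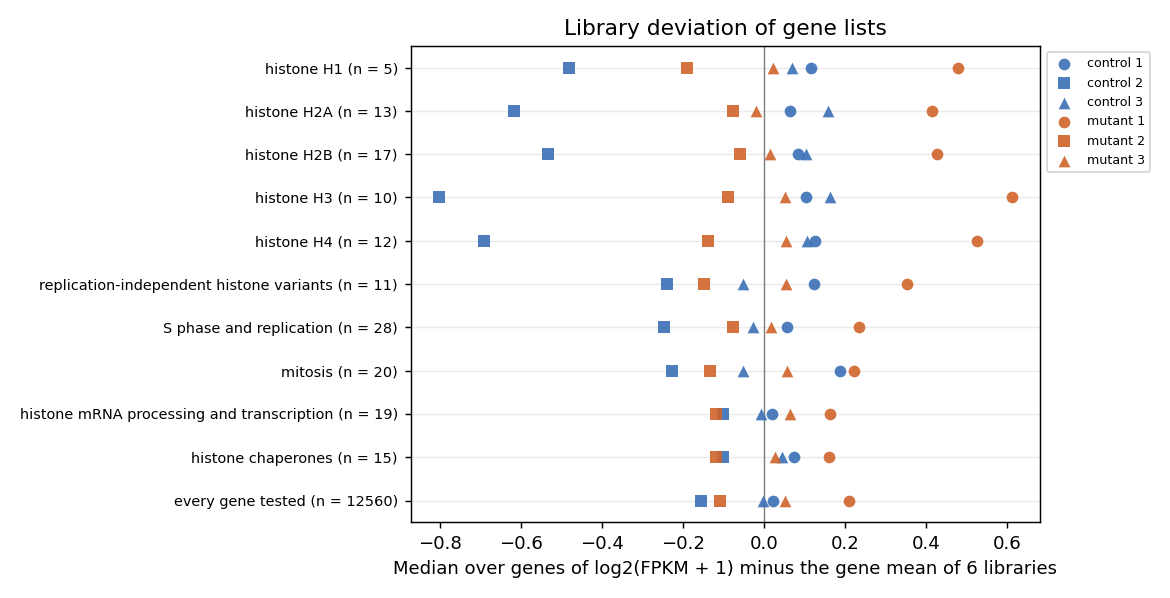
Median over the genes of each list of log2(FPKM + 1) minus the gene's mean over 6 libraries, with 1 point per library (blue controls, orange mutants, shape for the replicate). Control 2 lies at -0.48 to -0.80 in the 5 histone classes, further left than in the S phase (-0.25) and mitosis (-0.23) lists.

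Markers of other tissue parts also separated control 2 from the rest. Its median deviation was -1.37 in the 6 skeletal muscle markers and -1.09 in the 9 fibroblast markers, and mutant 1 was at 0.76 and 0.90. None of the markers in either list was at 0. In the hair matrix and shaft list, whose cells include cycling ones, control 2 was at 0.14 and mutant 1 at 0.27, and mutant 2 was lowest at -0.71. The part of tissue makeup, depth and sex in the histone levels was not tested.

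**Figure D5:**
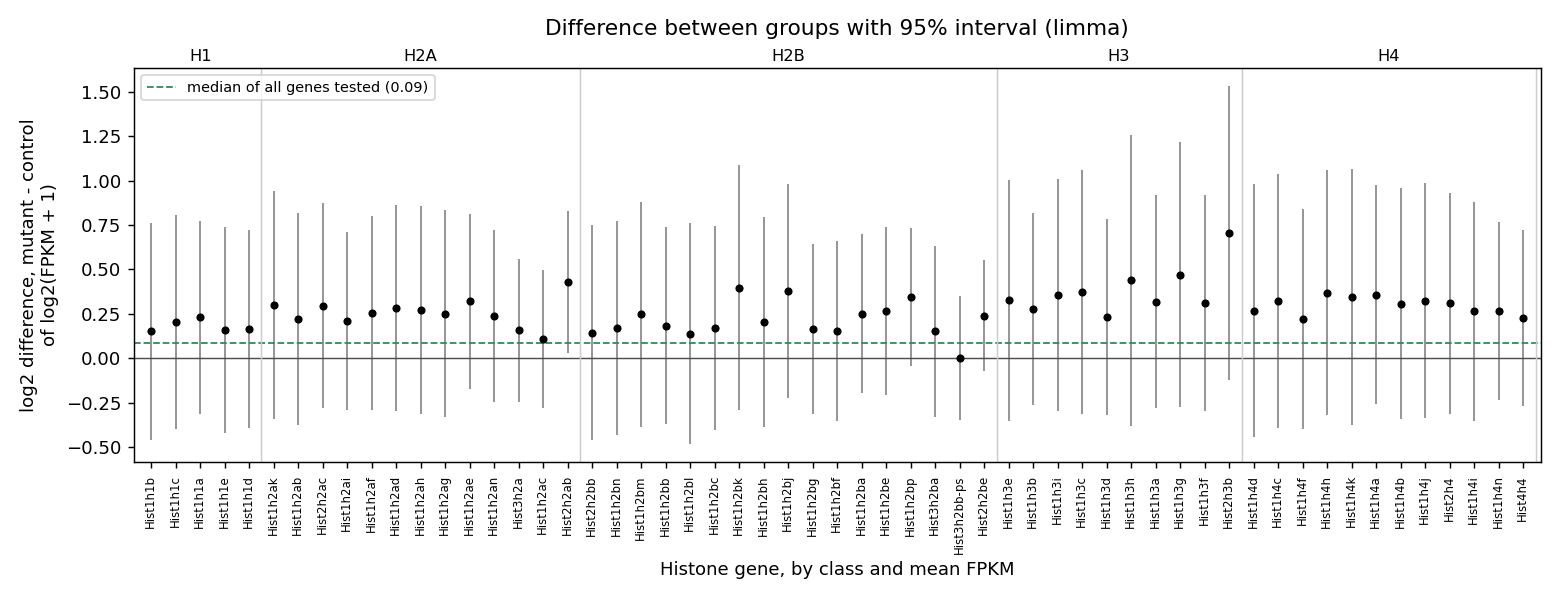
log2 difference between the mean log2(FPKM + 1) of 3 mutants and 3 controls for each of the 57 tested histone genes, with the 95% interval from limma; the dashed line is the median of all genes tested, 0.09. Only the interval of Hist2h2ab stays above 0, and no member had an adjusted p under 0.05.

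Divergent H2A and H2B genes share the stretch between their starts, and 13 such pairs were found with 173 to 306 bases between GENCODE starts. The ratio of H2B to H2A levels differed widely between pairs. Hist1h2bn stood at 1.38 to 1.81 times the FPKM of Hist1h2ak over the 6 libraries, and Hist1h2bl at 1.55 to 1.84 times that of Hist1h2ai. Hist1h2bc was at 10.9 to 13.2 times Hist1h2ac. In Hist1h2bp (0.376 to 0.496 times Hist1h2an), Hist2h2be (0.0175 to 0.0313 times Hist2h2ac) and Hist3h2bb-ps (0.0991 to 0.196 times Hist3h2a) the H2A gene had the higher level. The ratios of Hist2h2be and Hist3h2bb-ps, both at low FPKM, varied most between libraries for their size. Gene length enters these ratios: by the inferred lengths Hist1h2ac was counted over 2493 bases and Hist2h2be over 2618, where 381 and 393 are the commonest in H2B and H2A. Both members of 2 pairs (Hist1h2ao with Hist1h2bq, Hist1h2ap with Hist1h2br) were listed at 0.

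The related genes of S phase and of histone supply gave no call either. Of 28 genes for S phase and replication, 0 were called and 25 were above 0 (median 0.13, and 0.05 without control 2), and the groups were apart with mutants higher in 3. Among all genes tested, 71.3% were above 0 and 13.0% were apart in that direction. Their summed FPKM was 285, 225 and 272 FPKM in controls 1 to 3 and 337, 259 and 281 FPKM in mutants 1 to 3. E2f1, the cell cycle transcription factor, had 2.13, 1.51 and 2.18 FPKM in controls 1 to 3 and 2.35, 2.49 and 3.06 FPKM in mutants 1 to 3 (difference 0.31, adjusted p = 0.458). Mcm6, of the replicative helicase, had 16.9, 15.6 and 18.4 FPKM in controls 1 to 3 and 24.3, 19.9 and 19.6 FPKM in mutants 1 to 3 (difference 0.31, adjusted p = 0.491). Gins2, of the same helicase complex, had 3.85, 1.28 and 3.16 FPKM in controls 1 to 3 and 4.58, 3.97 and 3.62 FPKM in mutants 1 to 3 (difference 0.49, adjusted p = 0.512), and Rpa2, of the single-strand binding complex, 6.296, 4.28 and 7.17 FPKM in controls 1 to 3 and 9.55, 6.52 and 6.699 FPKM in mutants 1 to 3 (difference 0.32, adjusted p = 0.621). In E2f1 and Mcm6 every mutant was above every control, and in Gins2 and Rpa2 control 1 or control 3 lay among the mutants. Control 2 was the lowest library in all 4.

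Of 20 mitosis genes 0 were called and 16 were above 0 (median 0.09, and -0.04 without control 2). Cdk1, the kinase that drives entry into mitosis, had 11.1, 8.58 and 9.896 FPKM in controls 1 to 3 and 14.1, 9.48 and 12.1 FPKM in mutants 1 to 3 (difference 0.23, adjusted p = 0.694). Of 19 tested genes for histone mRNA processing and transcription 0 were called and 14 were above 0 (median 0.08). Slbp, the stem-loop binding protein, had 13.9, 10.98 and 13.2 FPKM in controls 1 to 3 and 17.2, 12.7 and 14.98 FPKM in mutants 1 to 3 (difference 0.22, adjusted p = 0.706). Lsm10, a protein of the U7 snRNP that cuts these mRNAs, had 3.603, 3.31 and 4.98 FPKM in controls 1 to 3 and 6.83, 4.98 and 5.51 FPKM in mutants 1 to 3 (difference 0.45, adjusted p = 0.2996), where control 3 and mutant 2 were level. Slbp thus ran from 10.98 to 17.2 FPKM over libraries in which the histone sum ran from 2372 to 5209.

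Replication-independent variants, which are made outside S phase as well and mostly from polyadenylated mRNA, gave 0 calls among 11 genes, with 10 above 0 and a median of 0.13. Their sum was 544, 430.0 and 477 FPKM in controls 1 to 3 and 648, 426 and 517 FPKM in mutants 1 to 3. H2afz, for H2A.Z, had 16.3, 14.7 and 17.6 FPKM in controls 1 to 3 and 22.9, 15.9 and 18.8 FPKM in mutants 1 to 3 (difference 0.22, adjusted p = 0.723). H2afy2, for macroH2A, had 3.11, 2.21 and 2.802 FPKM in controls 1 to 3 and 3.88, 3.51 and 3.47 FPKM in mutants 1 to 3 (difference 0.32, adjusted p = 0.377), with every mutant above every control. The 15 tested histone chaperones had 0 calls, 8 above 0 and a median of 0.01 (-0.06 without control 2). Chaf1a, the large subunit of the replication-coupled chaperone CAF-1, had 6.002, 4.15 and 5.24 FPKM in controls 1 to 3 and 6.19, 4.801 and 6.04 FPKM in mutants 1 to 3 (difference 0.13, adjusted p = 0.847), and Nasp, which carries H3 and H4, 17.7, 15.1 and 15.99 FPKM in controls 1 to 3 and 19.9, 15.9 and 17.5 FPKM in mutants 1 to 3 (difference 0.12, adjusted p = 0.856). In these lists control 2 deviated by -0.24 (variants) and -0.10 (chaperones) from the gene means, beside -0.61 for the replication-dependent genes.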

How the data were processed

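The authors deposited 1 FPKM value per gene and mouse. Per the submitters' processing notes, GSNAP, HTSeq and mm10 were used, with versions, annotation and counting options not given in the sources used here. Members and gene lists were chosen with earlier results of these data known.

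Values were compared as log2(FPKM + 1), a scale that understates differences of low genes, with limma 3.58.1 under R 4.3.3, letting the prior variance follow intensity. The fit took 3 controls and 3 mutants, with no covariate, over the 12560 genes that averaged 1 FPKM or more. Tests were two-sided with Benjamini-Hochberg adjustment over all genes and a threshold of 0.05. The labels name separate mice.

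The FPKM values of a gene rise in equal steps, 1 per read, which gave whole reads for 23412 of 23412 genes (relative tolerance 3e-09, genes at 0 included). These reads served for depth, for gene lengths and for an added limma-voom test. Sequence sharing and stem-loops were read from GENCODE M21 transcripts, and promoter windows from RefSeq.

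Members named singly were the 3 highest of each class and the 6 with the smallest p. Of each related list, up to 4 with the smallest p could be named. The octamer motif, the 2 libraries left out together and members named for their sequence or spread were chosen after seeing the data. Alternatives changed the pseudocount, the floor, the scaling, the variance prior, the block, sex and the libraries. No set test was run, and sums and medians over members are descriptions with no test.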

Additional observations from a re-analysis of the deposited data

How the results depend on the processing

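The number of histone genes called was 0 under every alternative in which the test was run, which were another pseudocount, floor, scaling or variance prior, the block, sex as a covariate, limma-voom, and each library left out in turn. The number of all genes called higher in mutants was 18, with 0 called lower. It was 9 with a pseudocount of 0.1, 4 with no filter on low values, 28 with median-of-ratios scaling, 32 with quantile normalization, 10 without an intensity trend and 67 with limma-voom on recovered reads. With sex as a covariate 10 were higher and 1 lower. Leaving out 1 library gave 3 to 189 higher and 0 to 4 lower, with 29, 11 and 189 higher when control 1, 2 or 3 was left out and 8, 3 and 49 when mutant 1, 2 or 3 was. The cause of these changes was not tested.

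Same-numbered libraries did not deviate together (correlations of 0.002, 0.037 and -0.082), and libraries with different numbers correlated at -0.273 to 0.284. These values reflect differences across whole libraries, so they cannot decide whether the numbers pair the mice. The replicate block gave 67 genes higher and 1 lower, 0 histone genes called and a lowest adjusted p of 0.159 among them.

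The median log2 difference of the 62 detected histone genes, 0.25, was -0.16 without control 2 and mutant 1 together, an alternative added after seeing the data. For the tested members the median was 0.15 with median-of-ratios scaling and 0.15 with quantile normalization, while the median of all genes went from 0.09 to -0.01 and -0.03. Without 1 library the median of the tested members ran from 0.01 to 0.39. Leaving out members with under 50% unique windows, the highest member of each class, or members whose length runs past the stem-loop left the log2 ratio of all histone sums at 0.24, 0.25 and 0.25. With 3 mice a group, the 95% interval of the log2 difference ran from -0.44 to 0.98 for Hist1h4d and from -0.12 to 1.53 for Hist2h3b, which limits the differences that could be detected.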
